A study of Mus musculus with 8 samples.

Results

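The B cell and plasma cell genes were 9 genes chosen by symbol, out of 52325 genes in the count table. The 4 B cell genes were Cd79a, Cd79b, Ms4a1 and Pax5, and the 5 plasma cell genes were Xbp1, Mzb1, Sdc1, Prdm1 and Tnfrsf17. Immunoglobulin genes were kept out of both groups. RNA-seq was compared between endometrium, the inner lining of the uterus, of 4 female Thra1PV/+ mice and 4 female wild-type (WT) mice. In Thra1PV/+ mice 1 of the Thra alleles is replaced, from the germ line on, by the PV mutant, a dominant-negative thyroid hormone receptor alpha made wherever Thra is active, and WT mice have no such allele. All 8 mice were matched at metestrus, no treatment is given in the labels, their ages are not given in the sources used here, and the tissue was cut from frozen sections by laser capture, so each library mixed epithelium, stroma and leukocytes. Replicates are samples that the labels number separately within a genotype.

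B cells carry an antigen receptor whose signal passes through the CD79A and CD79B proteins, and they bear CD20, the product of Ms4a1. PAX5 holds B cells in their identity. When a B cell becomes an antibody-secreting plasma cell, BLIMP1, the product of Prdm1, shuts PAX5 and the B cell program down, and XBP1 builds up the secretory machinery. The mucosa of the female reproductive tract holds plasma cells whose antibodies are carried across the epithelium. Several plasma cell markers are not particular to plasma cells: syndecan-1 (Sdc1), XBP1 and BLIMP1 are also made by epithelial cells.

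Among both the B cell genes and the plasma cell genes, some were higher in the mutants and others were not seen to differ. Differences between members were not tested. Sdc1 was the only 1 of the 7 members tested that passed the test, and it rose 3.04-fold (95% interval 1.82 to 5.07) in the Thra1PV/+ endometrium. Passing the test meant a fold change of at least 2 with an adjusted p of at most 0.1 in edgeR's quasi-likelihood test, with Benjamini-Hochberg adjustment over 18174 genes, and 0.99% of those genes passed, 0.924% with a higher level in the mutants. Cd79a had the largest difference among the tested members, 5.98-fold (1.65 to 21.7) with no overlap between genotypes, but its adjusted p was 0.341. Mzb1 and Prdm1 were also at higher mean levels in the mutants without passing, while Cd79b, Ms4a1 and Xbp1 had intervals that spanned no change. Pax5 and Tnfrsf17 had too few reads for the test.

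Library totals lay between 48791602 and 59818887 estimated reads. WT replicate 1 stood apart: its 5 smooth muscle genes summed to 9424 CPM (counts scaled to library size with TMM factors) against 336 to 779 in the other WT libraries, and its blood genes to 179 against 17.1 to 57.5. Thra itself was at 80.1 ± 34.2 CPM in the mutants and 78.0 ± 33.7 in WT (SD, n = 4 each), with a log2 fold change of 0.04. Both alleles are summed in a gene count, so this does not check the genotype labels.

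The B cell label was checked against further B cell genes, and their levels were uneven. Cd22, an inhibitory B cell receptor, had 54.0 to 286 counts in the mutants and 67.0 to 113 in WT. Cd37 and Cd72, surface proteins of B cells that other leukocytes can also carry, had 110 to 380 and 453 to 1144 counts over the 8 libraries. All of these were detected in every library, with log2 fold changes of 0.86, 0.21 and 0.20 (adjusted p = 0.644, 0.900 and 0.906). By contrast Cr2, the complement receptor of mature B cells, had 0 counts in every mutant library and at most 3 in WT. It did not exceed the floor of 3 counts per library and was not tested. Other genes of the list were low too: Bank1 had 2 to 23 counts over the 8 libraries, Fcmr 4 to 31, Tnfrsf13c 1 to 19 and Cxcr5 0 to 23. Tnfrsf13c and Cxcr5 were not tested. Pax5 had 3 counts in Thra1PV/+ replicate 4, 10 in WT replicate 1 and 0 in the other 6 libraries. Detected transcripts of Cr2 and Pax5 were therefore at or near 0 in most libraries of both genotypes, and differences in them were not detectable at this depth.

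Corrected for length, Xbp1 and Sdc1 stood far above the other members. Prdm1 had the next highest mean in both genotypes, and Tnfrsf17 lay among the B cell genes. By its mean, Mzb1 lay below Cd79b in WT and above every B cell gene in the mutants. In the deposited TPM (transcript abundance corrected for length), Xbp1 averaged 211 ± 59.8 in the mutants and 220 ± 114 in WT (SD, n = 4 each), and Sdc1 averaged 188 ± 35.8 and 58.6 ± 23.9. Prdm1 followed at 10.5 ± 3.22 TPM in the mutants and 4.61 ± 2.99 in WT. Next came Mzb1 at 5.84 ± 3.88 and 1.83 ± 1.24 and Cd79b at 4.91 ± 0.964 and 3.70 ± 1.48. Cd79a, at 1.24 ± 0.950 and 0.210 ± 0.129, stood lower, and the means of Ms4a1, Tnfrsf17 and Pax5 were all under 0.5 TPM. The ranges over libraries of Xbp1 and Sdc1 overlapped in the mutants and not in WT. Prdm1, Mzb1 and Cd79b followed each other with overlapping ranges between neighbours in both genotypes, as did Cd79a, Ms4a1, Tnfrsf17 and Pax5, in differing order. In the mutants, however, the lowest Prdm1 value (7.33 TPM) was above the highest Cd79b value (5.97 TPM).

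**Figure D1:**
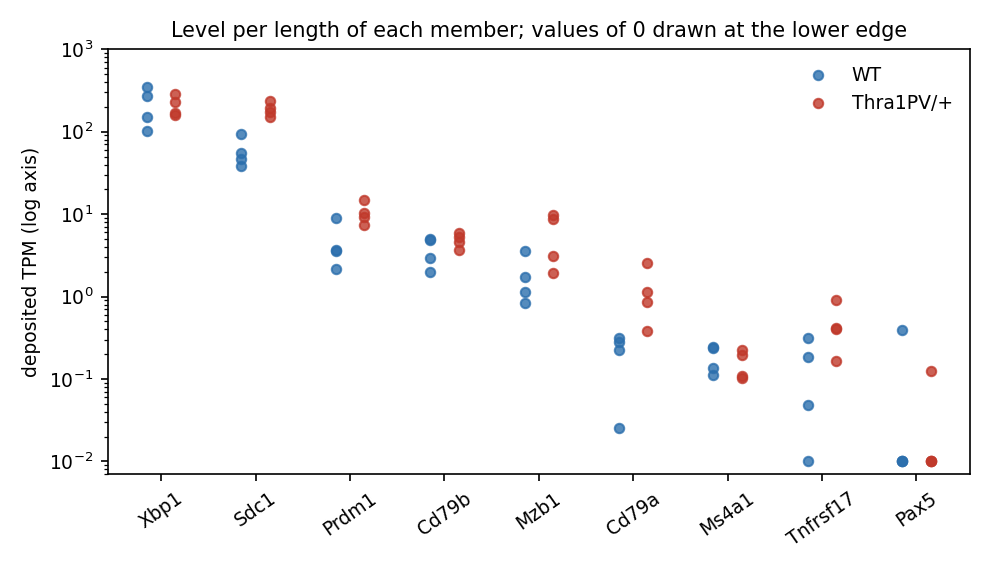
Deposited TPM of each member in each library on a log axis, ordered by the WT mean, with WT in blue and Thra1PV/+ in red and values of 0 drawn at the lower edge. Xbp1 and Sdc1 lie highest, and the 4 Thra1PV/+ points of Sdc1 (149 to 233 TPM) lie above the WT points (38.4 to 92.8 TPM).

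Cd79a and Cd79b encode the paired signal chains of the B cell receptor, and Cd79a lies on the plus strand of chromosome 7 (24897381 to 24902197, GRCm38) and Cd79b on the minus strand of chromosome 11 (106311341 to 106314762). Cd79a had 62, 21, 142 and 78 counts in Thra1PV/+ replicates 1 to 4 and 18, 16, 1 and 15 in WT replicates 1 to 4. In CPM this was 1.14, 0.426, 2.90 and 1.37 in the mutants and 0.344, 0.289, 0.0199 and 0.314 in WT. Every mutant library was above every WT library, Thra1PV/+ replicate 2 came closest to the WT range, and WT replicate 3 lay far below its group. Such separation in either direction was seen for 6.04% of all tested genes (3.55% with the mutants higher), and 2 of the 7 tested members (Cd79a and Sdc1) showed it. The mean was 1.46 ± 1.04 CPM in the mutants and 0.242 ± 0.149 in WT (SD, n = 4 each), and the exact two-sided permutation test gave p = 0.0286, the smallest that 4 against 4 allows. The edgeR log2 fold change was 2.58 (SE 0.81, 95% interval 0.72 to 4.44, unadjusted p = 0.0124 in that fit across all genes, adjusted p = 0.341). DESeq2, which called 3.58% of the genes it tested (2.57% higher in the mutants), gave Cd79a an adjusted p of 0.0264 and a log2 fold change of 2.62, so the call turned on the test used. Of its 31-base words, 12.2% also occur in the pseudogene Gm32220. No other member crossed the threshold in DESeq2 that had missed it in edgeR.

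Cd79b had 4.35, 4.10, 5.31 and 5.76 CPM in the mutants and 3.02, 2.004, 4.36 and 4.44 in WT. The genotypes overlapped, since the highest WT libraries lay above Thra1PV/+ replicates 1 and 2. Its log2 fold change was 0.50 (SE 0.32, 95% interval -0.22 to 1.22, adjusted p = 0.667). The ratio of Cd79b to Cd79a, examined after their values were seen and so given without a test, was 2.05 to 12.1 in the mutants and 8.77 to 196 in WT on the TPM scale. These partner genes were thus measured at unequal levels in every library, and the highest ratio belonged to the WT library with 1 count of Cd79a.

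Ms4a1 (chromosome 19, 11249675 to 11266241, minus strand), the gene of CD20, did not follow Cd79a. Its estimated counts were 8.85 to 18.4 in the mutants and 12.1 to 18.2 in WT, all close to the minimum of 10 in the filter on low counts. In CPM it had 0.331, 0.183, 0.368 and 0.193 in the mutants and 0.229, 0.271, 0.358 and 0.356 in WT. The values of both genotypes ran through each other, and the lowest 2 and the highest library were all mutant. Its log2 fold change was -0.18 (SE 0.38, 95% interval -1.05 to 0.70, adjusted p = 0.929). Pax5 (chromosome 4, 44524757 to 44710487, minus strand) was described above with 3 counts in all mutants together and 10 in all WT libraries together, the latter in a single library.

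**Figure D2:**
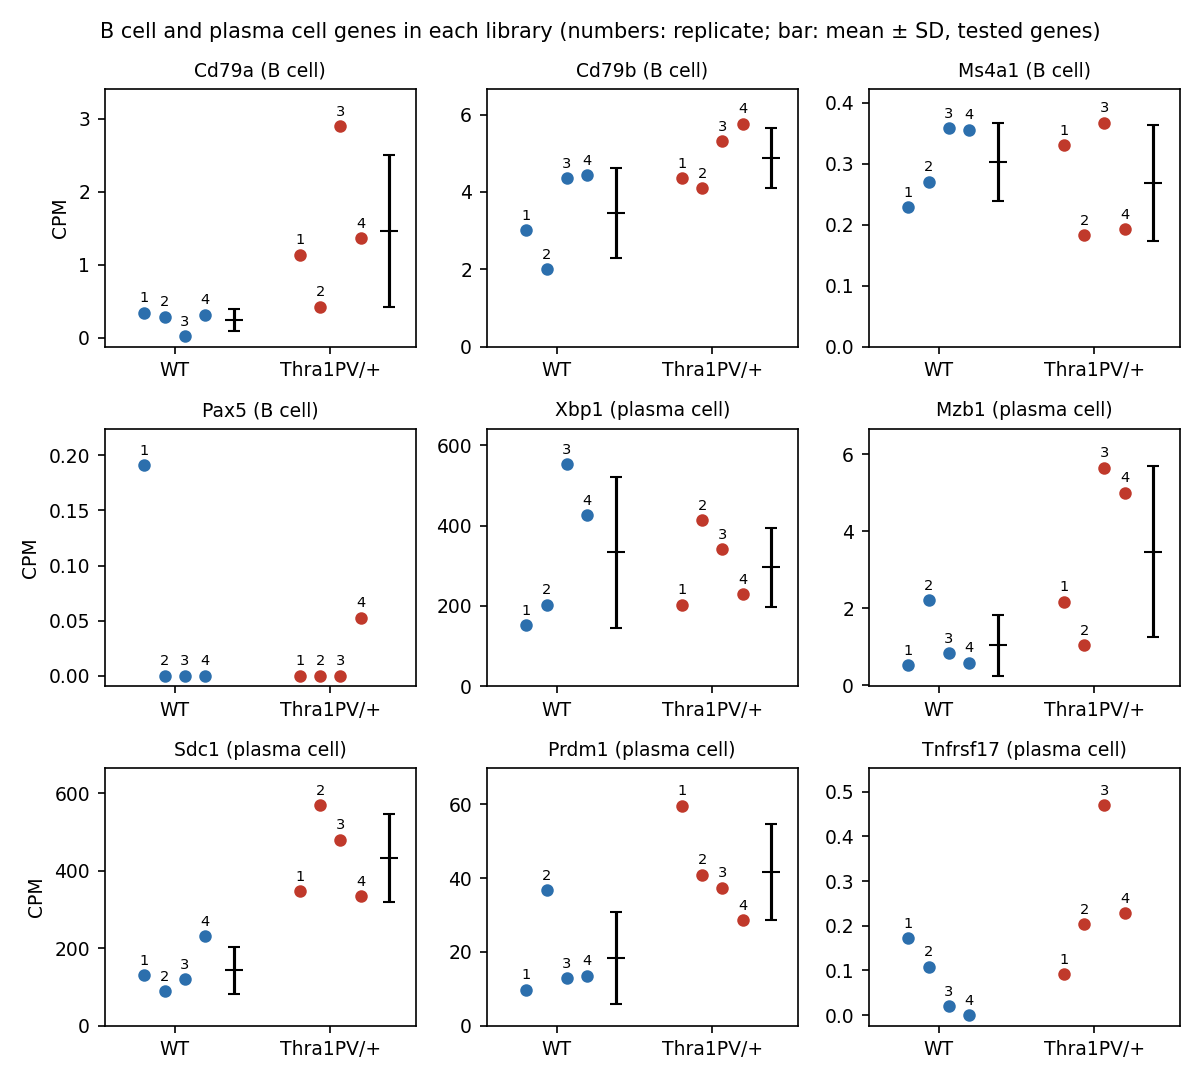
CPM of each member in each library, 1 panel a gene with its own linear axis, with replicate numbers beside the points and the mean ± SD for the 7 tested genes. Cd79a and Sdc1 are the panels in which the lowest red point (0.426 and 334 CPM) lies above the highest blue point (0.344 and 231 CPM).

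Sdc1 encodes syndecan-1 (CD138), a heparan sulfate proteoglycan used as the surface marker of plasma cells and abundant on stratified epithelium. It lies on the plus strand of chromosome 12 (8771323 to 8793715). The mutant libraries had 347, 569, 480 and 334 CPM and the WT libraries 130, 88.2, 120 and 231. All 4 mutants lay above all 4 WT libraries, with WT replicate 4 the nearest. The means were 432 ± 112 and 142 ± 61.7 CPM (SD, n = 4 each), the exact two-sided permutation p was 0.0286, and the edgeR log2 fold change was 1.60 (SE 0.32, 95% interval 0.87 to 2.34, adjusted p = 0.0944). That adjusted p was close to the threshold: leaving out any 1 library except WT replicate 4 raised it to between 0.130 and 0.284 with log2 fold changes of 1.44 to 1.74, while without WT replicate 4 it was 0.0511 at 1.94. DESeq2 gave it an adjusted p of 0.000726.

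Squamous epithelial markers separated the genotypes in the same direction as Sdc1. All 10 genes of that list were higher in every mutant library than in any WT library, as were 3.55% of all tested genes. The edgeR test was passed by 9 of them, where 0.924% of all tested genes passed with a higher mutant level. None of the 10 was at the floor in all libraries. Their summed level was 2906 to 4504 CPM in the mutants and 1.28 to 66.0 in WT. Krt5, the keratin of the basal layer, was at 1461 ± 446 CPM in the mutants and 8.48 ± 7.31 in WT (SD, n = 4 each). Among the mutants, replicates 2 and 3 had both the highest squamous sums and the highest Sdc1, whereas among WT libraries replicate 4 had the highest Sdc1 at a squamous sum of 22.5 CPM. The part of squamous cells in the Sdc1 difference was not tested.

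**Figure D3:**
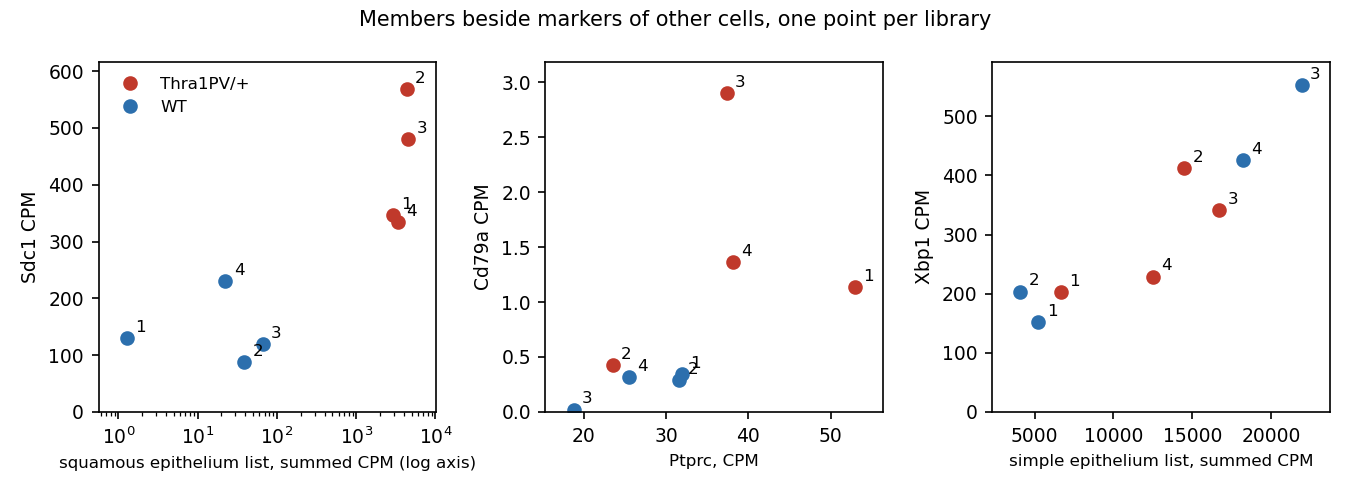
Each point is a library (number: replicate): Sdc1 CPM against the summed CPM of the squamous list on a log axis, Cd79a CPM against Ptprc CPM, and Xbp1 CPM against the summed CPM of the simple epithelium list. Red Thra1PV/+ points stand at the upper right of the Sdc1 panel (squamous sums of 2906 CPM or more). Xbp1 is highest in the WT library with the largest simple epithelium sum (21940 CPM, of which Ltf is 16020).

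Xbp1 (chromosome 11, 5520659 to 5525893, plus strand), the transcription factor of the secretory program, was the most abundant member per length and was not seen to differ by genotype. The mutants had 203, 413, 342 and 229 CPM and WT had 151, 203, 553 and 426. WT libraries held both the lowest and the highest value. Its log2 fold change was -0.17 (SE 0.43, 95% interval -1.15 to 0.82, adjusted p = 0.942), and its sign turned without WT replicate 3 (0.21) and without Thra1PV/+ replicate 1 (0.02). The 4 libraries with the lowest Xbp1 were Thra1PV/+ replicates 1 and 4 and WT replicates 1 and 2. Those same libraries had the 4 lowest sums of the simple and glandular epithelium list (4100 to 12500 CPM, against 14500 to 21940 in the others). Ltf, the gene of the secreted protein lactoferrin, was the largest part of each sum. It was at 1290 to 8482 CPM in those 4 libraries and 9800 to 16020 in the others, so the sums are not a plain measure of epithelium. Epcam, a marker of simple epithelium, was at 656 ± 251 CPM in the mutants and 617 ± 372 in WT (SD, n = 4 each). What epithelium added to Xbp1 was not tested. Salmon's gene counts do not tell spliced from unspliced Xbp1, so the active form was not measured.

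The ratio of Sdc1 to Xbp1 was also examined after the values were seen and is given without a test. On the TPM scale it was 0.808 to 1.075 in the mutants and 0.134 to 0.546 in WT. The ratio of Sdc1 to Mzb1 ran from 17.3 to 119 in the mutants and from 10.7 to 81.2 in WT. The first ratio separated the genotypes and the second did not.

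Mzb1, a chaperone of the endoplasmic reticulum in B and plasma cells, lies on the minus strand of chromosome 18 (35647267 to 35649367). It had 118, 51, 277 and 286 counts in the mutants and 27, 122, 41.9 and 28 in WT. These were 2.17, 1.04, 5.66 and 5.01 CPM and 0.515, 2.20, 0.836 and 0.586 CPM. Thra1PV/+ replicates 3 and 4 were above all WT libraries, while replicates 1 and 2 fell within the WT range because of WT replicate 2. The log2 fold change was 1.74 (SE 0.68, 95% interval 0.19 to 3.29, p = 0.0322, adjusted p = 0.451), and the exact two-sided permutation p was 0.0857. In GENCODE M21 its exons overlap a gene model, SPATA24, on the same strand, with which it shares 55.1% of its 31-base words, and how the counting divided such reads is not given in the sources used here.

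Prdm1 (chromosome 10, 44437177 to 44528501, minus strand), the gene of BLIMP1, had 59.7, 41.0, 37.4 and 28.5 CPM in the mutants and 9.77, 36.7, 12.9 and 13.5 in WT. WT replicate 2 reached the mutant range and the other 3 WT libraries stayed below it. The log2 fold change was 1.19 (SE 0.44, 95% interval 0.19 to 2.19, p = 0.0251, adjusted p = 0.417), with an exact two-sided permutation p of 0.0571. Without WT replicate 2 it was 1.82 with an adjusted p of 0.0523 and passed the test. WT replicate 2 had the highest WT value, so leaving it out had to widen the difference, and that fit does not explain the missing call.

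Tnfrsf17 (chromosome 16, 11313812 to 11320074, plus strand) encodes BCMA, the receptor through which long-lived plasma cells receive survival signals. It had 5, 10, 23 and 13 counts in the mutants and 9, 6, 1 and 0 in WT. Thra1PV/+ replicates 2, 3 and 4 were above the highest WT library, and replicate 1 was within the WT range. It did not pass the filter on low counts. The exact two-sided permutation p was 0.0857, and DESeq2, which keeps such genes, gave a log2 fold change of 1.75 with an adjusted p of 0.522.

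**Figure D4:**
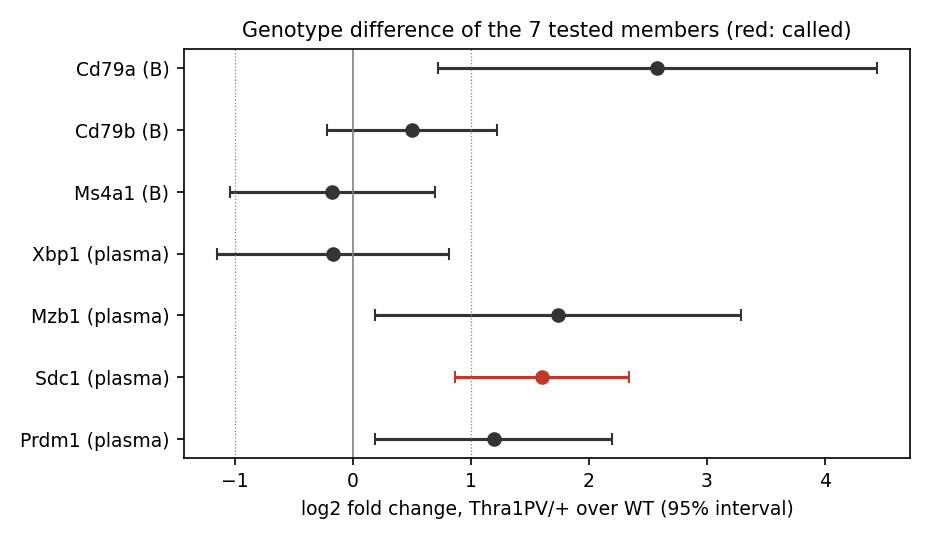
Log2 fold change (Thra1PV/+ over WT) of the 7 tested members with 95% intervals, with dotted lines at a fold change of 2. The Sdc1 interval (0.87 to 2.34) belongs to the only gene that passed the test, and the intervals of Cd79b, Ms4a1 and Xbp1 span 0.

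Counted without the fold threshold, 4 of the 7 tested members (Cd79a, Mzb1, Sdc1 and Prdm1) had an unadjusted p under 0.05 with a higher mutant level, where 5.05% of all tested genes did. The median log2 fold change was 0.50 over the 3 tested B cell members and 1.40 over the 4 tested plasma cell members, and -0.05 over all tested genes, with Pax5 and Tnfrsf17 in none of these figures. No library was highest or lowest for all of the members.

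Ptprc, the gene of the leukocyte antigen CD45, was at 37.99 ± 12.0 CPM in the mutants and 26.9 ± 6.19 in WT (SD, n = 4 each), with a log2 fold change of 0.50 (adjusted p = 0.611). The 8 general leukocyte genes together summed to 240 to 416 CPM in the mutants and 255 to 324 in WT. Laptm5 was the largest part of every sum, at 115 to 187 CPM in the mutants and 117 to 207 in WT. Its log2 fold change was -0.16, so the sums mainly follow a gene unlike the rest of the list. None of the 8 genes passed in edgeR, and 2 had an unadjusted p under 0.05 with a higher mutant level, as did 5.05% of all tested genes. DESeq2 called 1 higher, the integrin gene Itgb2, where it called 2.57% of its tested genes higher in the mutants. None was at the floor, and 7 of 8 had a log2 fold change above 0, as did 43.2% of all tested genes. In bulk libraries, more cells of a type and more RNA per cell cannot be told apart. Taken relative to Ptprc on the log2 scale, Cd79a was still higher in every mutant library than in any WT library, with a mean difference of 1.98 (mutants -4.90 ± 0.907, WT -6.87 ± 0.988). Relative to Ptprc the other differences were 1.19 for Mzb1, 1.19 for Sdc1, 1.02 for Tnfrsf17, 0.88 for Prdm1, 0.08 for Cd79b, -0.51 for Xbp1, -0.66 for Ms4a1 and -0.80 for Pax5. All of these overlapped between genotypes. Pax5 had 0 counts in most libraries, where its log2 CPM came from the prior count alone, so its -0.80 is not a measured decrease. The part of leukocyte content in these results was not tested.

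Other genes of the B cell were read from a list of 22, of which 18 could be tested. Bcl11a, a transcription factor needed for early B cells and also active in other lineages, was the only 1 that passed. Over all tested genes 0.924% passed with a higher mutant level. In the list, 14 of the 18 had a log2 fold change above 0, as did 43.2% of all tested genes. Bcl11a had 10.3, 10.5, 10.7 and 12.2 CPM in the mutants and 1.93, 1.82, 2.79 and 2.87 in WT. Its values hardly varied within a genotype, unlike those of Cd79a, and its log2 fold change was 2.22 (SE 0.24, adjusted p = 0.00778). Blk, a kinase of the B cell receptor, and Siglecg, an inhibitory B cell lectin, had log2 fold changes of 1.17 and 1.31 with adjusted p of 0.493 and 0.445. The median of the list was 0.57. Ebf1, which works upstream of Pax5 and of Cd79a and is also made by stromal cells, had a log2 fold change of -0.82 (adjusted p = 0.645).

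Among 14 other plasma cell genes, all tested, none passed in edgeR at the adjusted threshold. An unadjusted p under 0.05 was seen for 2, both with a higher mutant level, as for 5.05% of all tested genes. Pou2af1, the lymphocyte coactivator of octamer-binding factors, had 1.95, 0.507, 2.80 and 1.03 CPM in the mutants and 0.172, 0.704, 0.0398 and 0.147 in WT. Only Thra1PV/+ replicate 2 fell within the WT range. Its log2 fold change was 2.55 (SE 0.87, adjusted p = 0.373 in edgeR and 0.0483 in DESeq2, where it was the only 1 of the 14 called). DESeq2 called 2.57% of its tested genes higher in the mutants. Derl3, a protein of endoplasmic reticulum degradation, had a log2 fold change of 1.28 (adjusted p = 0.487), and Edem1, of the same pathway, 0.51 (adjusted p = 0.680). Irf4, which drives plasma cell differentiation, was at 1.93 ± 0.948 CPM in the mutants and 1.29 ± 0.284 in WT. The list median was 0.17.

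The unfolded protein response is the pathway through which IRE1 splices Xbp1 RNA, and 19 of its 20 listed genes were tested. None passed in edgeR or in DESeq2, while 3 had an unadjusted p under 0.05 in edgeR, all with higher mutant levels. Over all tested genes 5.05% had such a p with a higher mutant level. Ern1, the gene of IRE1 alpha, had 66.5, 78.7, 97.1 and 94.5 CPM in the mutants and 41.0, 48.7, 63.1 and 50.8 in WT. Its genotypes did not overlap, but its log2 fold change of 0.73 (SE 0.18, adjusted p = 0.187) was under the fold threshold. Sel1l, of the degradation complex, also did not overlap, with a log2 fold change of 0.40 (adjusted p = 0.355), and Ddit3, the stress factor CHOP, had 0.53 (adjusted p = 0.508). Over all tested genes 3.55% had no overlap with the mutants higher. In all, 17 of the 19 had a log2 fold change above 0, as did 43.2% of all tested genes. Their median was 0.42, against -0.05 over all tested genes, and Xbp1 itself was at -0.17.

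**Figure D5:**
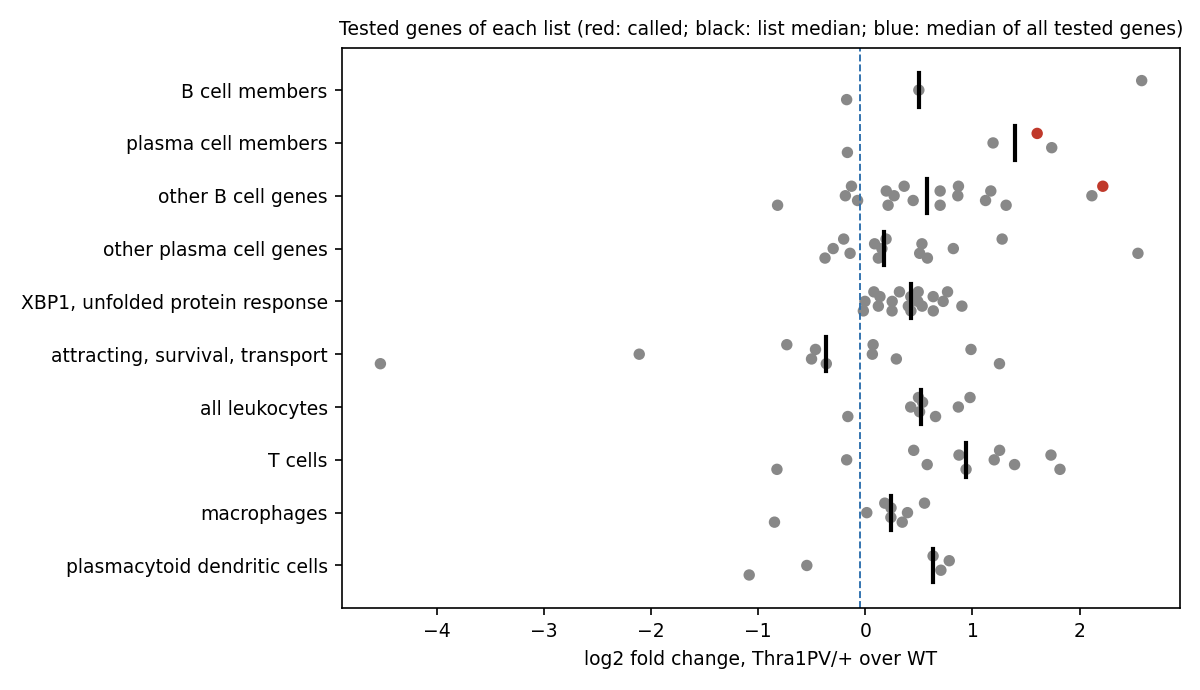
Log2 fold change of every tested gene of the members and of 8 of the lists (epithelial, stromal, muscle and blood lists are not drawn), with the list median as a black bar, genes that passed the test in red and the median of all tested genes (-0.05) as a dashed blue line. The red points drawn are Sdc1 among the plasma cell members and Bcl11a among the other B cell genes.

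The genes most like each member were found by the mean absolute difference in centred log2 CPM over the 8 libraries, so a smaller value means a closer pattern. Immunoglobulin genes were left out of this search, so none could be the nearest gene, and the other members were ranked separately. Cd79a was nearest to Icos, a T cell costimulator, at 0.444, and its nearest member, Mzb1, was at 0.917. Sdc1 was nearest to Foxq1, at 0.177, and Foxq1 itself had a log2 fold change of 1.72 (adjusted p = 0.0576). Mzb1 was nearest to Ly6c2 (0.349), Prdm1 to Knstrn (0.228), Xbp1 to Frk (0.073), Cd79b to Ms4a14 (0.119) and Ms4a1 to Tusc3 (0.131). For no tested member was another member its nearest gene. With 7 tested members among 18174 tested genes this was likely in any case, so it does not show whether the members moved together.

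The promoters of Cd79a and Sdc1 are shown because these were the members whose genotypes did not overlap. The sequences are from the GRCm38.p6 assembly with RefSeq starts, cut before the annotated transcript starts, with motif matches in capitals. For Cd79a the 134 bases at chr7:24897247-24897380 on the plus strand hold 1 match to AAGGGAAT, a half-site of early B cell factor, and for Sdc1 the 177 bases at chr12:8771146-8771322 on the plus strand hold 2 matches to the GC box GGGGCGGGG, of the kind bound by SP1 family factors.
Cd79a: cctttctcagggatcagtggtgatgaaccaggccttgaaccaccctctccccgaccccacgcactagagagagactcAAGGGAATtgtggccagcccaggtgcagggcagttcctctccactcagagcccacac
Sdc1: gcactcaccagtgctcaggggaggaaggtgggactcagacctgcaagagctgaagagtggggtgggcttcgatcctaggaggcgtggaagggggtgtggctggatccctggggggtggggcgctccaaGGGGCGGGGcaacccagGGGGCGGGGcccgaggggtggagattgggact
On both strands of 250 bases before the RefSeq start, the half-site occurred in 1.10% and the GC box in 10.4% of 32851 promoters, and both motifs were added after these sequences had been seen. Of the 9 members, 6 had a promoter in the table used, and Pax5, Xbp1, Prdm1 and Tnfrsf17 held no match to these motifs, to the octamer ATGCAAAT (1.6% of promoters), to the full palindromic site of early B cell factor (0.779%) or to the XBP1 element TGACGTGG (0.563%). Cd79a and Sdc1 held none of these last 3 either. The motifs describe the sequence and are not measurements of binding.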

How the data were processed

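Endometrium of 4 Thra1PV/+ and 4 WT mice was laser-captured, and stranded mRNA libraries were sequenced as read pairs. The authors trimmed reads with Trimmomatic and deposited salmon's estimated counts per gene for mm10, with no normalization; software versions and the annotation release are not given in the sources used here. The TPM values that the authors deposited had nearly equal sorted values in every library, as quantile normalization gives. A further 1 column of per-sample values in it matched no sample and was not used.

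Counts were rounded and tested with edgeR 4.0.16 (quasi-likelihood, TMM, filterByExpr with a minimum count of 10 and a total of 15, genotype only) in R 4.3.3. Library totals of 48791602 to 59818887 set the counting error, which is only part of the spread between libraries. CPM used TMM factors, and log2 CPM a prior count of 2. Single members were also compared by exact permutation over 70 arrangements. The p-values weigh the genotype difference against the spread between these samples. Alternatives were DESeq2 1.42.0, limma 3.58.1 on counts and on log2(TPM + 1) and log2(TPM + 0.1), other scalings and filters, immunoglobulin genes left out, a replicate block, and each library left out. Scripts were tested on simulated data. No 2 libraries agreed within sampling noise.

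The members, the 13 further lists and the motifs were chosen with earlier results of these data known. Named were all members, called genes of each list (up to 4) or else the 3 genes with the smallest p, certain fixed markers, and the tested genes most like each member. Cd22, Cd37, Cd72, Cr2, Bank1, Fcmr, Tnfrsf13c, Cxcr5, Ebf1, Irf4, Blk, Siglecg and Pigr were chosen after their values were seen. So were the ratios between members. A result for 1 gene of the other B cell list is not reported here. Gene positions are from GENCODE M21 (GRCm38). Symbols were matched for 52220 of 52325 identifiers.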

Additional observations from a re-analysis of the deposited data

Results flagged for a closer look

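Of 102 groups of 4 libraries examined over the 9 members and the named genes, 7 had a library whose gap to the nearest other, over the range of the group, exceeded Dixon's 95% critical value on the log2 CPM scale, where chance alone would give about 5.1. Cd79a in WT replicate 3 was at -4.10 against -1.61 to -1.39 in the other WT libraries, from 1 count. Pax5 was at -3.46 in Thra1PV/+ replicate 4 (3 counts) and at -2.12 in WT replicate 1 (10 counts), with 0 counts in the others of each group. Cd3e, a T cell receptor subunit, was at -1.04 in Thra1PV/+ replicate 2 against 1.52 to 1.99 in the other mutants. WT replicate 1 gave the remaining 3: Ccl21a, a chemokine of lymphatic vessels, at 6.09 against -0.04 to 0.55, the smooth muscle myosin Myh11 at 10.77 against 6.07 to 6.66, and the squamous gene Pkp1 at -4.12 against 0.25 to 0.70. Without WT replicate 1 the log2 fold changes of the members were 2.84 for Cd79a, 1.60 for Sdc1, 1.57 for Mzb1 and 1.03 for Prdm1, and none passed the test (adjusted p from 0.199 for Sdc1 to 0.972 for Ms4a1).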

How the results depend on the processing

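Calls among the members depended on the processing. Against 180 genes called, 1 of them a member and 10 in the other lists, DESeq2 called 791 (568 higher and 223 lower), 2 and 16, and at least 10 counts in every library left 81, 0 and 3. All genes on log2(TPM + 1) gave 119 calls and voom with quality weights 311. An adjusted p of at most 0.05 gave 119 genes and 0 members, and an unadjusted p under 0.05 gave 1775 and 4. Leaving out each library gave 81 to 167 genes, 0 to 1 members and 5 to 10 list genes. Sdc1 lost its call with at least 10 counts in every library (log2 fold change 1.61, adjusted p = 0.129) and kept it under the other scalings, tests and TPM scales; its leave-one-out log2 fold changes were 1.44 to 1.94. Cd79a was called in DESeq2 (2.62), and over leave-one-out fits it ranged from 2.0 to 2.89. Prdm1 ranged from 1.02 to 1.82 and was called without WT replicate 2. Xbp1 changed sign on all 3 TPM scales (0.06), without Thra1PV/+ replicate 1 (0.02) and without WT replicate 3 (0.21), its leave-one-out range being -0.37 to 0.21; with library size only, its difference turned sign at an exact permutation p of 0.886. The other tested members kept their direction in every fit that tested them. The cause of these changes was not tested.

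The labels link same-numbered libraries by number only, and whether these shared a batch was not tested. Their deviations from the group means correlated at 0.269, -0.436, 0.34 and -0.159 for numbers 1 to 4, which does not settle it. With the replicate block, 82 genes, 0 members and 6 list genes were called, and Sdc1 had a log2 fold change of 1.66 (adjusted p = 0.282).

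Depth limits Pax5, Tnfrsf17, Ms4a1, Cr2, Bank1, Tnfrsf13c and Cxcr5, with at most 23 counts in any library.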

Other observations

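Genes that attract, keep or serve B and plasma cells had log2 fold changes in both directions. Of 15 listed genes, 11 were tested and none passed in edgeR. An unadjusted p under 0.05 was seen for 1 with a higher mutant level and 2 with a lower one. Among all 18174 tested genes 917 and 858 had these. The median log2 fold change of the list was -0.37. Cxcr4, the chemokine receptor by which plasma cells home, had 30.0, 23.9, 32.3 and 22.9 CPM in the mutants and 14.8, 6.74, 7.64 and 16.6 in WT. Its genotypes did not overlap, and its log2 fold change was 1.25 (SE 0.32, adjusted p = 0.207 in edgeR and 0.0186 in DESeq2). Its ligand gene Cxcl12 was at 25.6 ± 24.7 CPM in the mutants and 111 ± 101 in WT (SD, n = 4 each), with a log2 fold change of -2.11 (adjusted p = 0.505), and Ccl21a had -4.53 (adjusted p = 0.502), its WT mean resting on replicate 1. Pigr, the epithelial carrier of secreted antibody, was at 1884 ± 908 and 2427 ± 2244 CPM, with a log2 fold change of -0.36 (adjusted p = 0.936).

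Markers of other leukocytes are given as values. None of 11 T cell genes passed in edgeR, and 5 had an unadjusted p under 0.05 with a higher mutant level, as did 5.05% of all tested genes. DESeq2 called Cd5 and Cd4 higher, where it called 2.57% of its tested genes higher in the mutants. The median log2 fold change was 0.94, against -0.05 over all tested genes. Cd3e was at 2.68 ± 1.56 CPM in the mutants and 0.805 ± 0.360 in WT (adjusted p = 0.434 in edgeR). None of 8 macrophage genes had an unadjusted p under 0.05 (median 0.24). Of 6 genes of plasmacytoid dendritic cells, which also use several B lineage genes, 5 were tested and none passed in edgeR or DESeq2, 1 (Runx2) had an unadjusted p under 0.05, with a list median of 0.63 and Siglech at 0.584 ± 0.409 and 0.338 ± 0.355 CPM. Of 8 stromal genes and 9 genes of simple and glandular epithelium none had an unadjusted p under 0.05 in edgeR (medians -0.51 and -0.02). All 5 smooth muscle genes had an unadjusted p under 0.05 with a lower mutant level (median -4.60), as did 2 of 5 tested blood genes (median -1.78). Among all 18174 tested genes 858 did, and no gene of these 2 lists passed in edgeR. In both lists the WT level rested largely on replicate 1. Its smooth muscle sum was 9424 CPM, against 336 to 779 in the other WT libraries and 101 to 395 in the mutants. DESeq2 called none of the macrophage, stromal or simple epithelial genes and none of the 5 tested blood genes. It gave no p for 4 of the 5 smooth muscle genes (Acta2, Myh11, Cnn1 and Actg2), which therefore could not be called there, nor for Ccl21a.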
